A study of Mus musculus with 25 samples.

Results

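The genes described are the 4 mouse peptidylarginine deiminase genes Padi1, Padi2, Padi3 and Padi4, taken by symbol from a table of 55487 genes in 25 libraries of Achilles tendon RNA from mice aged 3 months. All 4 symbols were found. They were chosen by the read counts of these same libraries, in which Padi2 had stood lower in runners than in caged mice, so every value of these genes that sets runners against caged mice is given as a description, with no test. The remaining gene of the family, Padi6, is given beside them.

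The libraries fall into 4 groups. They are AMPKcKO mice on a running wheel (cKO running, 3 females and 3 males), wild-type mice on a wheel (WT running, 3 females and 3 males), AMPKcKO mice at cage activity (cKO cage, 3 females and 3 males) and wild-type mice at cage activity (WT cage, 4 females and 3 males). By library name, cKO cage male 3 and WT cage female 4 carry the prefix X9789, and the remaining libraries X11116. Both X9789 libraries are caged. The prefix X9789 is called the less common project below, which is a reading of the names and not a label. AMPKcKO stands for a conditional knock-out. By the series title the lost protein is AMPKα1, the product of Prkaa1 and one of the catalytic chains of AMPK, a kinase that senses cellular energy, and the labels name no Cre driver. Prkaa1 itself ranged from 13.9 to 22.6 CPM (counts scaled to a library of fixed size) in cKO libraries and from 13.4 to 31.2 CPM in WT libraries. Its log2 fold change was -0.36 ± 0.12 (SE), with an edgeR adjusted p of 0.981. Cre was counted in all 6 cKO running libraries, in 0 WT running, in 5 cKO cage and in 0 WT cage libraries. Entries for eGFP passed 10 CPM in all 6 cKO running libraries, in 1 WT running, in 2 cKO cage and in 0 WT cage libraries, so eGFP carriage was largely tied to the cKO running group. The libraries that stand against their group by these reporters are WT running male 2 (eGFP) and cKO cage female 3 (no Cre). WT running female 2 (112) and WT running male 3 (83.1) stood apart on the second principal component of log2 CPM (11.8% of variance), where the remaining scores lay from -26.8 to 7.63. On the first component (16.6% of variance) cKO running male 2 (88.9), WT cage female 1 (72) and WT running male 3 (66.9) scored highest, and the remaining scores lay from -60.8 to 37.7. Values without these libraries are given where they bear on a result. Library totals ranged from 13193228 to 45724243 counts. The defining tenocyte genes (Tnmd, Scx, Mkx, collagens and others, 11 of 11 tested) summed to 5363 to 25320 CPM, and skeletal muscle fibre genes to 27290 to 256400 CPM, so every library held muscle RNA beside tendon RNA. In such bulk samples, fewer cells of a type and less RNA per cell cannot be told apart.

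Peptidylarginine deiminases are calcium-dependent enzymes that turn the arginine of a protein into citrulline, which removes a positive charge. The modified arginine is no longer part of the free pool that nitric oxide synthase or arginase uses. PAD2, the product of Padi2, is the widely expressed member, known in skeletal muscle, brain, spinal cord and macrophages, and its substrates include vimentin, myelin basic protein and histones. PAD1 and PAD3 belong to the epidermis and the hair follicle, where filaggrin and trichohyalin are substrates. PAD4 is the enzyme of granulocytes, which citrullinates histones when neutrophils release extracellular traps. PAD6 belongs to the oocyte and early embryo.

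The family lies in one cluster on chromosome 4 of GRCm38, spanning 225.2 kb from Padi6 to Padi2. Padi6 (140727355 to 140742643), Padi4 (140745865 to 140774236), Padi3 (140785365 to 140810648) and Padi1 (140812983 to 140845778) are on the minus strand, and Padi2 (140906344 to 140952586) is on the plus strand, 60.6 kb beyond Padi1. Positions are from GENCODE M21.

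The promoter windows of Padi2, Padi3 and Padi1 are printed to set the member with the highest level here beside its nearest relatives on the chromosome. Each is the 217 bases upstream of both the RefSeq and the GENCODE start, from RefSeq on GRCm38.p6, 5′ to 3′ on the gene's own strand, with GGGCGG (or its reverse complement CCGCCC) and CCAAT (or ATTGG) in capitals. Padi2 is chr4:140906110-140906326 on the plus strand, Padi3 is chr4:140810682-140810898 on the minus strand, and Padi1 is chr4:140845812-140846028 on the minus strand.
Padi2: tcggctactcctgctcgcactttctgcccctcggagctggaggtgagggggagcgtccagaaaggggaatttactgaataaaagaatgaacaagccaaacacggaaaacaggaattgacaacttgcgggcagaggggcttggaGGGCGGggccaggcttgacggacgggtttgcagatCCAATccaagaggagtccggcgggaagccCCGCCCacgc
Padi3: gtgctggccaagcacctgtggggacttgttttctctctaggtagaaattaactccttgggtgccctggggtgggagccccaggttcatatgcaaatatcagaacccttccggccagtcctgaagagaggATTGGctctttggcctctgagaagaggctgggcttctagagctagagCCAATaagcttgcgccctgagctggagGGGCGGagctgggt
Padi1: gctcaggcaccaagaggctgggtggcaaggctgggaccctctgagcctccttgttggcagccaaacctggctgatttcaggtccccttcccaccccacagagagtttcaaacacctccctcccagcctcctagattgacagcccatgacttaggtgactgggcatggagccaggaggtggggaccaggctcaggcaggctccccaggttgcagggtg

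The window of Padi2 held 2 GGGCGG and 1 CCAAT, that of Padi3 held 1 and 2, and those of Padi1 and Padi4 held neither, counting both strands. GGGCGG, the core of the GC box that Sp factors can bind, was present in 28.0% of the 27025 promoter windows of the same length, and CCAAT in 31.2%. At least 2 GGGCGG were present in 12.6% of windows. CpG numbered 13 in the window of Padi2, 3 in that of Padi3, 0 in that of Padi1 and 3 in that of Padi4, against a median of 5 over all windows, and 74.6% of windows had fewer than Padi2. A match of letters is a description of these windows and shows no binding.

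**Figure D1:**
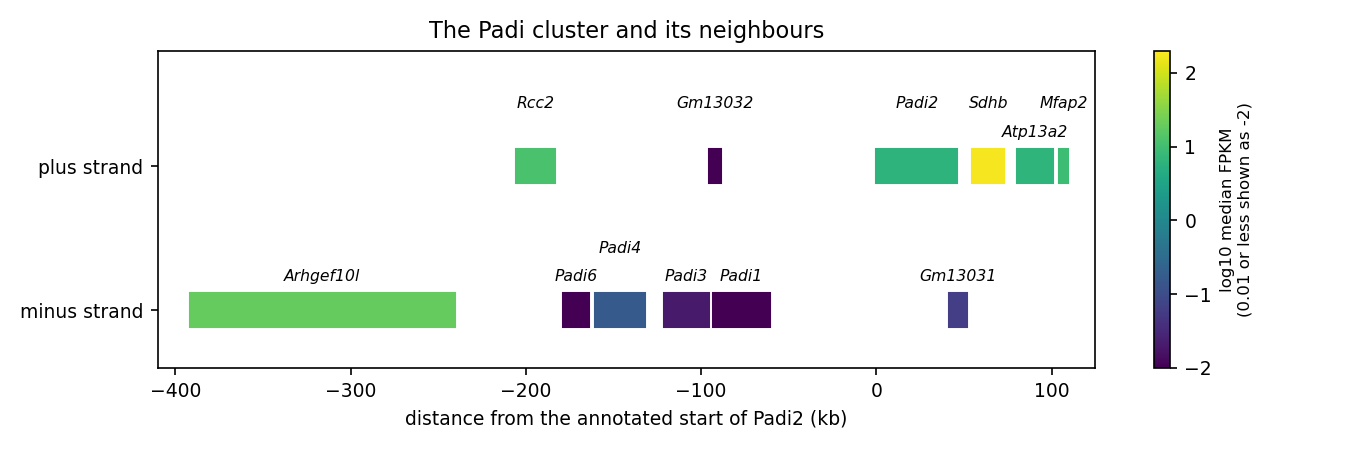
Protein-coding genes of the Padi cluster and the antisense genes Gm13031 and Gm13032, by distance from the annotated start of Padi2 (kb) and by strand, coloured by log10 median FPKM over 25 libraries. Padi2 (median 5.91 FPKM) is bright beside Padi1, Padi3, Padi4 and Padi6, whose medians are 0.01, 0.02, 0.16 and 0 FPKM.

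Padi2 was the member that the tendon libraries held. On the per-length scale of FPKM, its median level was 5.91 (range 1.25 to 12.29), above 68.1% of the 23888 genes with a median FPKM above 0. It had the highest FPKM of the family in 25 of 25 libraries, and 97.4% of all counts on the 5 family genes. Padi4 followed with a median of 0.16 FPKM and a highest value of 1.27 FPKM. Padi3 had a median of 0.02 FPKM (highest 0.89) and Padi1 one of 0.01 FPKM (highest 0.63), and the levels of these 2 genes overlapped over their whole range. In the 19 libraries with Padi4 above 0, the ratio of Padi2 to Padi4 FPKM was at least 1.425, with a median of 22.71. The lowest ratio was in cKO running male 3, which had 16 counts of Padi4 (1.27 FPKM) and 224 of Padi2. WT running female 2 had 17 counts of Padi4 at 0.18 FPKM, so Padi4 FPKM did not follow its counts. Padi6 had 5 counts in all, 2 in WT running female 1 and 3 in WT cage male 2. Of the 4 members, 2 (Padi2 and Padi4) passed the filter on low counts and were tested among 19155 genes. Padi1 and Padi3 did not pass.

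The level of Padi2 (ENSMUSG00000028927) in each mouse is given on the CPM scale, scaled by TMM. In cKO running females it was 8.79, 27.4 and 6.47 CPM, and in cKO running males 8.37, 8.89 and 7.92 CPM. In WT running females it was 23.8, 7.15 and 21.7 CPM, and in WT running males 23.97, 9.82 and 4.49 CPM. On this scale the runners formed a low set and a high set. The low set held 8 libraries between 4.49 and 9.82 CPM (5 cKO and 3 WT). The high set held 4 between 21.7 and 27.4 CPM (1 cKO and 3 WT). On the FPKM scale the sets were not apart. There WT running male 2 and cKO running male 2 of the low set had 3.18 and 3.53 FPKM, and WT running male 1 of the high set had 3.95 FPKM.

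In cKO cage females Padi2 was 54.7, 32.1 and 27.7 CPM, and in cKO cage males 27.3, 47.2 and 32.8 CPM. In WT cage females it was 14.8, 42.1, 58.8 and 42.7 CPM, and in WT cage males 35.1, 32.3 and 43.3 CPM. WT cage female 1 was the lowest caged library and lay between the low and the high runners. cKO cage male 1 (27.3 CPM) also lay just below the highest runner (27.4 CPM). WT cage female 1 had the lowest muscle fibre sum of the caged mice (32780 CPM) and the highest macrophage sum (724.4 CPM). The part of these sums in its low Padi2 was not tested.

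**Figure D2:**
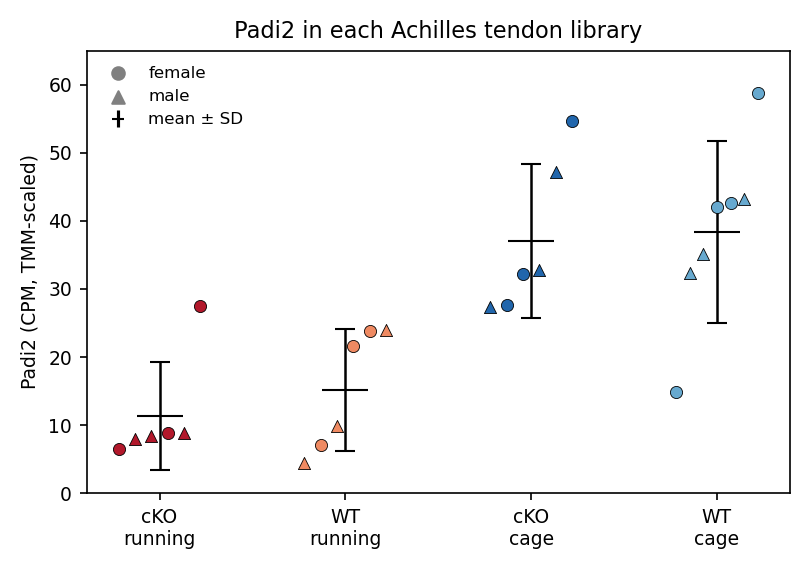
Padi2 in TMM-scaled CPM in each of 25 libraries by group, with circles for females, triangles for males, and lines for the mean ± SD. Of 12 runners, 8 lie below the lowest caged library (14.8 CPM), and 11 of 13 caged libraries lie above the highest runner (27.4 CPM).

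Runners averaged 13.2 ± 8.32 CPM of Padi2 (SD, n = 12), and caged mice 37.8 ± 11.98 CPM (SD, n = 13). The fitted log2 fold change of runners over caged mice, as the mean of both genotypes, was -1.54 ± 0.26 (SE), a level 2.91-fold lower. These are the values that chose the gene. In this comparison 273 of 19155 genes were called by edgeR at an adjusted p under 0.05 (1.43%), and 156 of them were lower in runners (0.814%). A smaller log2 fold change than that of Padi2 was found for 0.115% of tested genes.

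Within cKO mice, Padi2 averaged 11.3 ± 7.94 CPM in runners and 37.0 ± 11.3 CPM in caged mice (SD, n = 6 each), and the log2 fold change was -1.75 ± 0.38 (SE). Of the 6 cKO runners, 5 lay below the lowest cKO caged library. Within WT mice, it averaged 15.2 ± 8.97 CPM in 6 runners and 38.4 ± 13.4 CPM in 7 caged mice (SD), and the log2 fold change was -1.34 ± 0.36 (SE). Of the 6 WT runners, 3 lay below the lowest WT caged library, and 2 of those 3 were the libraries that stood apart. Without them the WT log2 fold change was -0.95 ± 0.35, and the mean over genotypes was -1.35 ± 0.24. Without WT running male 2 and cKO cage female 3, the mean over genotypes was -1.55 ± 0.28. It was -1.52 ± 0.27 without cKO running male 2 and -1.63 ± 0.24 without WT cage female 1.

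With each sex fitted alone, the log2 fold change of runners over caged mice was -1.80 ± 0.29 in males and -1.28 ± 0.39 in females. The same libraries chose the gene, so the shared sign is a description and no support. On the FPKM scale, Padi2 averaged 3.14 ± 1.73 in runners and 7.81 ± 2.29 in caged mice (SD, n = 12 and 13).

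Loss of AMPKα1 is the other axis of the design, and it was not used to choose the gene. Among runners, Padi2 averaged 11.3 CPM in cKO mice and 15.2 CPM in WT mice, and the 2 groups overlapped over most of their range. The log2 fold change was -0.44 ± 0.37 (SE, 95% interval -1.17 to 0.29), with an edgeR adjusted p of 0.631. The interval covers a level more than 2-fold lower in cKO runners as well as no difference. Among caged mice the log2 fold change was -0.03 ± 0.35 (interval -0.72 to 0.66, adjusted p = 1.000), and as the mean of both activities it was -0.23 ± 0.26 (interval -0.74 to 0.27, adjusted p = 0.981). Padi2 was called in none of these comparisons. Across all genes, edgeR called 0% for genotype in runners, 0% in caged mice and 0.00522% (1 gene) for the mean of both, so the background of calls is itself near nothing. At an unadjusted p under 0.05 there were 2173 genes in runners and 217 in caged mice, and DESeq2 called 0 in each.

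The genotype value among runners, which was not called, depended on single libraries in its size but not in its sign. Without cKO running female 3, the one cKO runner with a high level, the log2 fold change was -0.88, and without WT running male 1 it was -0.17. Without WT running female 2 and WT running male 3 it was -0.83 ± 0.35 (adjusted p = 0.382). Without cKO running male 2 it was -0.40 ± 0.40 (adjusted p = 0.887), and without WT cage female 1 -0.44 ± 0.34 (adjusted p = 0.564). A muscle covariate, the mean log2 CPM of the muscle fibre genes, left it at -0.06 ± 0.30, and a Schwann cell covariate left it at -0.05 ± 0.36. An eGFP carriage covariate left it at -0.37 ± 0.54, with carriage largely tied to genotype among runners. The part of composition in this value was not tested. Muscle fibre genes were negative for genotype in runners in 28 of 28 cases (median log2 fold change -0.62, against 0.01 over all genes tested), with summed levels of 27290 to 124000 CPM in cKO runners and 71960 to 256400 CPM in WT runners. Schwann cell genes were positive in 12 of 12 cases (median 1.58), with sums of 116.9 to 1603 CPM in cKO runners and 84.7 to 351 CPM in WT runners, and mast cell genes in 8 of 8 (median 0.80). None of the genes on these 3 lists was called.

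The fall of Padi2 with running was not shown to differ between genotypes. The interaction, the running change in cKO mice minus that in WT mice, was -0.41 ± 0.51 (SE, interval -1.42 to 0.60), with an edgeR adjusted p of 0.820 and 0% of genes called (1377 at an unadjusted p under 0.05, and 0 by DESeq2). Between the sexes, Padi2 averaged 23.5 ± 15.1 CPM in 12 males and 28.3 ± 17.3 CPM in 13 females (SD). The male minus female log2 fold change was -0.33 ± 0.26 (interval -0.84 to 0.17, adjusted p = 0.727), where 0.616% of genes were called.

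**Figure D3:**
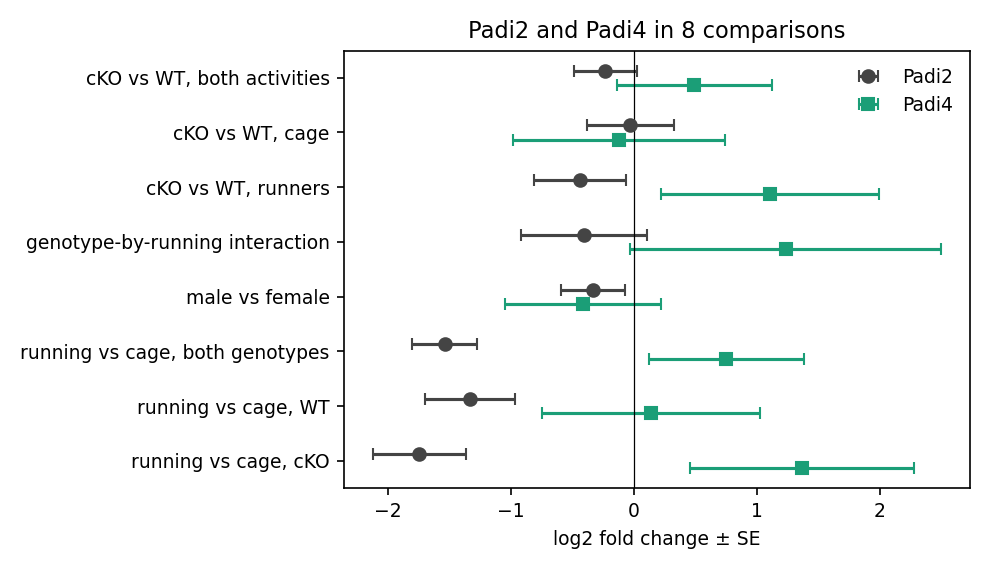
Log2 fold changes (± SE) of Padi2 (circles) and Padi4 (squares) from edgeR in 8 comparisons. The running values of Padi2 lie between -1.75 and -1.34, and its genotype, interaction and sex values lie between -0.44 and -0.03.

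Padi4 (ENSMUSG00000025330), the granulocyte member, was near the limit of counting. It had 190 counts over 25 libraries, between 0 and 36 in each, and was at 0 in 6 libraries, where a count of 0 allows up to 0.107 to 0.237 CPM (3 counts, counting error only). It ranged from 0.04 to 0.83 CPM in cKO runners (median 0.45), from 0 to 0.52 CPM in WT runners (median 0.20), from 0 to 0.39 CPM in cKO caged mice (median 0.15) and from 0 to 0.57 CPM in WT caged mice (median 0.13). All 6 cKO runners had at least 1 count. The groups overlapped throughout.

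The log2 fold change of Padi4 for genotype was 1.11 ± 0.89 in runners (SE, interval -0.64 to 2.85, edgeR adjusted p = 0.610), -0.13 ± 0.86 in caged mice (adjusted p = 1.000) and 0.49 ± 0.63 as the mean of both (adjusted p = 0.981). The interaction was 1.23 ± 1.27 (adjusted p = 0.782), and the male minus female value was -0.42 ± 0.63 (adjusted p = 0.894). The running values, given as a description, were 0.75 ± 0.63 as the mean of both genotypes, 1.37 ± 0.91 in cKO mice and 0.14 ± 0.89 in WT mice. These errors leave Padi4 undecided in either direction at this depth.

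Most genes of the neutrophil, the cell known for PAD4, were sparse too. Of 16 genes on the list, 11 had a median count of 0 and 3 passed the filter. Those 3, Lcn2, Csf3r and Prtn3, had medians of 2.06, 1.17 and 0.48 CPM, above the Padi4 median of 0.18 CPM. S100a8, a calgranulin subunit abundant in neutrophils, reached at most 0.55 CPM, and Mpo and Ly6g had no count in 20 and 23 of 25 libraries. The summed neutrophil list lay between 3.29 and 8.24 CPM in cKO runners, 2.02 and 11.7 CPM in WT runners, 2.18 and 6.22 CPM in cKO caged mice and 1.74 and 7.87 CPM in WT caged mice. The 1 list member called in any comparison was Lcn2, a siderophore-binding protein, which was higher in males (log2 fold change 1.32 ± 0.27, edgeR adjusted p = 0.0114).

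Padi1 and Padi3, the skin and hair members, had most of their counts in one mouse. Padi1 had 101 counts over 25 libraries, of which 68 (67.3%) were in cKO running male 2, and Padi3 had 135, of which 78 (57.8%) were in the same library. There Padi1 stood at 1.57 CPM and Padi3 at 1.81 CPM. In the other 24 libraries Padi1 was at most 0.24 CPM and Padi3 at most 0.32 CPM. Padi1 was at 0 in 12 libraries and Padi3 in 9. For Padi4 the share of that library was 19.0% of 190 counts.

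Keratinocyte and hair follicle genes stood high in the same library. Their list of 17 genes summed to 503 CPM in cKO running male 2 and to between 13.8 and 36.5 CPM in the other 24, and 14 of the 17 were highest there. Trichohyalin (Tchh), the hair protein that PAD3 modifies, stood at 250 CPM, against at most 5.66 CPM in any other library. The inner root sheath keratins Krt71 and Krt25 stood at 56.6 and 36.3 CPM, against at most 0.08 and 0.15 CPM elsewhere. Filaggrin (Flg) stood at 25.8 CPM, against at most 1.52 CPM. The part of skin or hair RNA in the Padi1 and Padi3 counts was not tested. Padi2 was 8.89 CPM in that library, inside the range of the other cKO runners.

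**Figure D4:**
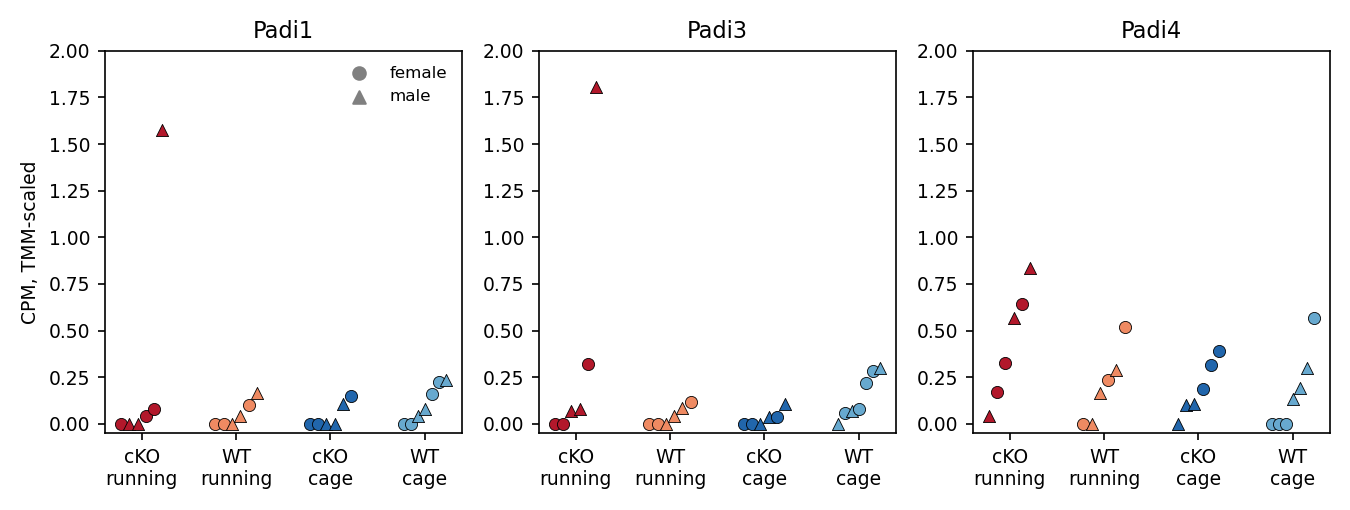
Padi1, Padi3 and Padi4 in TMM-scaled CPM in each of 25 libraries by group, on one scale, with circles for females and triangles for males. One cKO running male holds 1.57 CPM of Padi1 and 1.81 CPM of Padi3, and every other library is at or below 0.32 CPM for both, while Padi4 is spread from 0 to 0.83 CPM.

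With no filter on low counts, the log2 fold change for genotype in runners was 2.11 ± 1.27 (SE) for Padi1 and 2.82 ± 1.18 for Padi3, with edgeR adjusted p of 0.478 and 0.292. Without cKO running male 2 these values were -1.002 ± 1.65 and 1.15 ± 1.39 (adjusted p = 0.920 and 0.830). For the interaction, Padi3 had 5.13 ± 1.61 with that library and 3.19 ± 1.97 without it (adjusted p = 0.236 and 0.837). In caged mice Padi3 summed to 6 counts in 6 cKO libraries and 33 counts in 7 WT libraries, with a log2 fold change of -2.31 ± 1.15 (adjusted p = 0.875). No direction for Padi1 or Padi3 can be read beyond counting at these levels.

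Other genes of arginine chemistry were counted from lists. Among arginine methyltransferases and the arginyltransferase Ate1, which act on protein arginine or add arginine to proteins, 0 of 9 tested genes were called for genotype, for sex, for the interaction or for running. Among genes of free arginine and citrulline, such as nitric oxide synthases, arginases and the urea cycle enzymes Ass1 and Asl, 0 of 10 were called in those comparisons. Among known citrullination substrates, such as Vim, Fn1, Mbp, Npm1 and Tchh, 0 of 17 were called. Over all 19155 genes the share called was at most 0.00522% for genotype, 0% for the interaction, 0.616% for sex and 1.43% for running, so counts of 0 in lists of this size are near the background. Their median log2 fold change for running was 0.05, 0.05 and 0.15 in this order of lists, against 0.01 over all genes tested.

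The hormone receptors and Sp factors, listed because oestrogen and Sp1 are known to act on PADI2 transcription in human cells or rodent tissue, gave 0 called of 6 tested, beside 1.43% of all genes for running. All 6 were negative for running (median log2 fold change -0.18). The oestrogen receptor Esr1 was -0.16 ± 0.11 (SE, edgeR adjusted p = 0.506) and Sp1 -0.10 ± 0.07 (adjusted p = 0.494).

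Padi2 is known in muscle fibres and macrophages, so marker lists of other cell types are given beside its running value. For running as the mean of both genotypes, the 14 macrophage genes were positive in 13 cases (median log2 fold change 0.45) with 0 called, and the 12 Schwann cell and myelin genes were positive in 12 cases (median 1.38) with 0 called. Macrophage genes summed to 313.5 to 877.8 CPM in runners and 253.9 to 724.4 CPM in caged mice. Schwann cell genes summed to 84.7 to 1603 CPM in runners and 56.5 to 618.7 CPM in caged mice. Muscle fibre genes summed to 27290 to 256400 CPM in runners (median 110200) and 32780 to 207300 CPM in caged mice (median 155900), with a median log2 fold change of -0.12. These means over genotypes hide unlike values within each. The Schwann cell median for running was 0.26 in WT and 2.41 in cKO mice. The muscle fibre median was 0.22 in WT (24 of 28 positive) and -0.50 in cKO mice (27 of 28 negative). The macrophage median was 0.42 in WT and 0.45 in cKO mice.

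One muscle gene, Csrp3, the muscle LIM protein of the Z-disc, rose in runners (1.31 ± 0.24, edgeR adjusted p = 0.00527). So did Sbsn (suprabasin, a keratinocyte protein, 0.89 ± 0.20, adjusted p = 0.0233) and Cilp (a cartilage matrix protein on the tenocyte list, 0.70 ± 0.15, adjusted p = 0.0142). Each was the 1 called member of its list of 28, 7 and 11 tested genes, beside 1.43% of all genes. The running log2 fold change of Padi2 with a covariate in the fit was -1.35 ± 0.21 for muscle, -1.40 ± 0.24 for Schwann cell and -1.22 ± 0.25 for macrophage genes. The last 2 covariates were added after the data had been seen.

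Across the 13 caged mice, Padi2 ran against the macrophage sum. Pearson's r on the log2 CPM scale was -0.778 (adjusted permutation p = 0.00685, raw p = 0.00088) and Spearman's rho was -0.824 (adjusted p = 0.0064, raw p = 0.00101), over 10 relations of 5 lists and 2 activities. Without the 2 libraries farthest from the median macrophage sum r was -0.753. It was -0.664 within 6 cKO and -0.902 within 7 WT caged libraries. On the FPKM scale r was -0.629 and its adjusted permutation p was 0.102, so the call rests on the CPM scale. Muscle fibre genes gave r = 0.741 (adjusted permutation p = 0.026, raw p = 0.0078) and rho = 0.396 (adjusted p = 0.364, raw p = 0.182) in the same 13 mice. Without WT cage female 1 and cKO cage female 3 r was 0.177, so that relation rests on these 2 libraries.

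Across the 12 runners, Padi2 ran against the Schwann cell sum. Pearson's r on the log2 CPM scale was -0.793 (adjusted permutation p = 0.00685, raw p = 0.00137) and Spearman's rho was -0.839 (adjusted p = 0.0064, raw p = 0.00128), among the same 10 relations. Without the 2 farthest libraries, WT running male 1 and cKO running female 4, r was -0.837. It was -0.833 within 6 cKO and -0.969 within 6 WT runners. The lowest Padi2 and highest Schwann cell sums among WT runners were in WT running female 2 (257.3 CPM) and male 3 (351.0 CPM), which stood apart on the second component. Among cKO runners, female 3 had the highest Padi2 (27.4 CPM) and the lowest sum (116.9 CPM). No r without these libraries was computed. On the FPKM scale r was -0.704 and its adjusted permutation p was 0.101, so the call rests on the CPM scale here too. On the CPM scale the runners hold a low and a high set of Padi2, with no library between 9.82 and 21.7 CPM. No graded relation can therefore be read from the CPM-scale r over the 12. The FPKM scale did not show that gap. Muscle fibre (0.536), neutrophil (-0.506), macrophage (-0.423) and keratinocyte (-0.114) sums had adjusted permutation p between 0.142 and 0.91 in runners. In caged mice the Schwann cell sum gave r = 0.02 (adjusted permutation p = 0.959). Without the 2 farthest caged libraries, cKO cage female 1 and WT cage female 3, that r was -0.568. The difference in r between runners and caged mice was not tested.

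**Figure D5:**
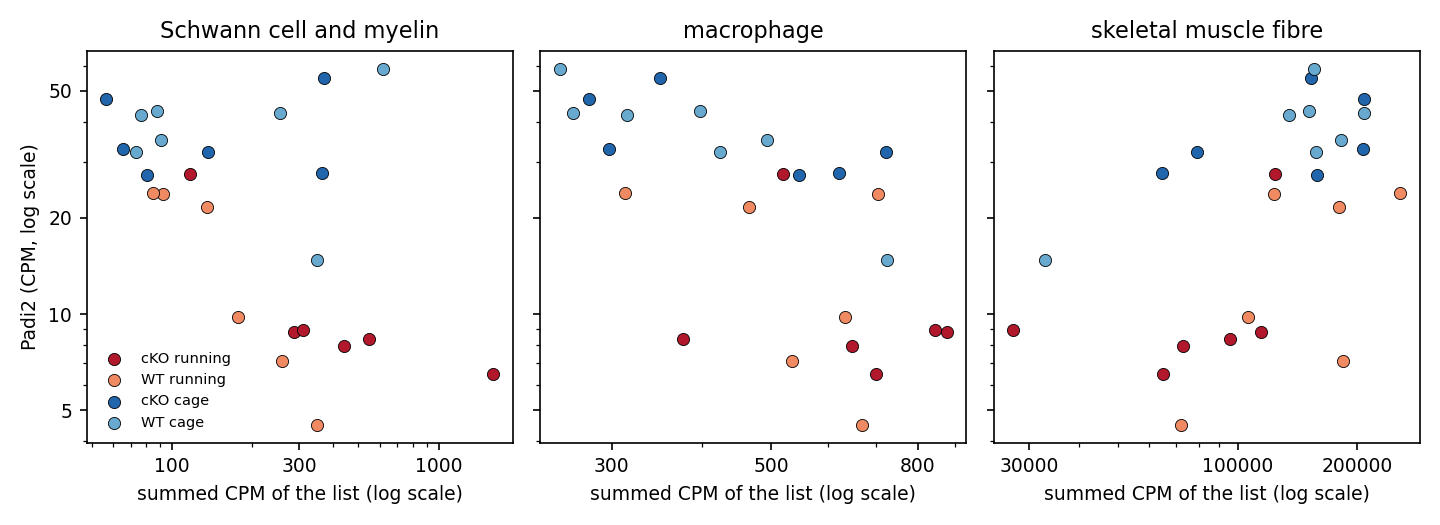
Padi2 in CPM against the summed CPM of the Schwann cell, macrophage and skeletal muscle fibre lists in 25 libraries, both axes logarithmic, coloured by group. Caged libraries with more macrophage RNA have less Padi2, and 8 runners lie below 10 CPM at macrophage sums of 377.3 to 877.8 CPM.

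The neighbours of Padi2 on the chromosome are given as a description. Padi2 was chosen by its low running value, so values closer to 0 in its neighbours are no result about the locus. Sdhb, a subunit of succinate dehydrogenase and the next protein-coding gene after Padi2, had a running log2 fold change of -0.27 ± 0.15 (SE, edgeR adjusted p = 0.403). Atp13a2, a lysosomal polyamine transporter, rose in runners by 0.46 ± 0.10 on the log2 scale (adjusted p = 0.0150). Mfap2, a microfibril protein, was -0.08 ± 0.19 (adjusted p = 0.898). On the other side, Rcc2, a mitotic and adhesion regulator, was 0.08 ± 0.11 (adjusted p = 0.787) and Arhgef10l, a guanine nucleotide exchange factor, was 0.11 ± 0.12 (adjusted p = 0.720). Beyond it lies Igsf21, with 61 counts in all and no test. For genotype in runners, none of the 5 tested neighbours was called (adjusted p 0.452 to 0.963).

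The antisense gene Gm13031 shares 149 exonic bases with the 3′ end of Padi2 and had 58 counts over 25 libraries, against 16142 for Padi2. The strand of the libraries is not given in the sources used here, so reads from the shared bases cannot be told apart. Gm13032 shares 1200 exonic bases with Padi1 and had 12 counts, beside 101 for Padi1.

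The genes most like Padi2 were ranked by Pearson's r over 25 libraries, on log2 CPM with the mean of each group removed, among 12782 genes. The residual SD of Padi2 was 0.73 on this scale. Stat5b, a cytokine-activated transcription factor, was highest at r = 0.85. It was followed by Rpa1 (single-strand DNA binding, 0.824), Pick1 (a PDZ-domain protein, 0.82), Ranbp10 (0.818), Atxn7l2 (0.817), Polr2e (an RNA polymerase subunit, 0.812), Zfp691 (0.804) and Me3 (a mitochondrial malic enzyme, 0.802). The lowest were Galk2 (-0.831), Tacc1 (-0.82), Braf (-0.809) and Ccdc71l (-0.809). Over all ranked genes the median was 0.04, and the 5th and 95th percentiles were -0.54 and 0.63. These libraries share composition and depth, so r is a description.

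None of these 12 genes was called for running. Stat5b was -0.11 ± 0.11 (SE, edgeR adjusted p = 0.669) and Me3, the largest of them, was -0.56 ± 0.18 (adjusted p = 0.134). Among the neighbours, Arhgef10l ranked 11th of 12782 at r = 0.80 and Sdhb 134th at r = 0.72, while Rcc2 (-0.17), Mfap2 (-0.25) and Atp13a2 (-0.27) lay below the median.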

How the data were processed

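RNA from pulverised Achilles tendon was extracted with TRIzol and spin columns, with DNase on the column, per the labels' protocols. The tools listed are RSEM 1.3.3, STAR 2.7.8a, FastQC 0.11.8 and cutadapt 2.3, and the genome GRCm38 (mm10), per the submitters' processing notes. Their roles, the library strand and the annotation release are not given in the sources used here. The authors deposited RSEM expected counts per gene, which were whole numbers throughout, and FPKM per gene in a separate table. FPKM was used for levels between genes and for alternatives, and the deposited expected counts for all else.

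The main tests of single genes used edgeR 4.0.16 under R 4.3.3. The tests left out the 4 reporter entries and kept the 19155 of 55487 genes that passed filterByExpr for the 4 groups, libraries were scaled by TMM, and 4 group means plus a sex term were tested by quasi-likelihood F-tests. The p-values of these tests are two-sided with Benjamini-Hochberg adjustment over all genes tested, called at an adjusted p under 0.05. The script was tested on simulated data. Totals of 13193228 to 45724243 counts (median 24538109) set the precision, and a count of 0 allows up to 3 counts. Correlations of marker sums with Padi2 were tested by 100000 permutations after adding 0.01 CPM, with Benjamini-Hochberg adjustment over the 10 relations. Each library is taken as one mouse, which the labels do not state, so p-values measure the spread between these libraries.

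The members and gene lists were chosen with earlier results of these data known. Genes named are the family, 3 neighbours on each side, up to 4 called genes per list by smallest p, and the 8 highest and 4 lowest in likeness among genes with a mean log2 CPM of at least 1. List examples outside that rule (S100a8, Mpo, Ly6g, Csf3r, Prtn3, Tchh, Krt71, Krt25, Flg, Esr1 and Sp1) were chosen after their values were seen. Alternatives covered RLE scaling, library totals alone, no filter or 1 CPM in 6 libraries, DESeq2 1.42.0, limma 3.58.1 (limma-voom with quality weights, and log2 FPKM with 1 or 0.1 added), no sex term, a replicate block, a project term, covariates and left-out libraries. After the data had been seen, Schwann cell and macrophage covariates, fits without WT running male 2 and cKO cage female 3, fits of Padi1 and Padi3 without cKO running male 2 and correlations without the 2 farthest libraries were added. Same-numbered libraries of a sex (34 pairs) had deviations correlated at -0.20 to 0.25, with 10 pairs above 0.1. These values show no clear pairing by number, and they cannot exclude one.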

Additional observations from a re-analysis of the deposited data

Results flagged for a closer look

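In 16 sets of a Padi gene and a group, 4 sets, in 3 libraries, had a value far from the rest of the group by Dixon's criterion. Its chance rate of about 1 in 20 holds for independent, normally distributed values. The Padi1 and Padi3 values are low counts with ties, so the number of sets flagged cannot be set against that rate. Padi2 was 27.4 CPM in cKO running female 3, and the other 5 cKO runners lay between 6.47 and 8.89 CPM. Padi1 was 1.57 CPM and Padi3 1.81 CPM in cKO running male 2, the library with 503 CPM of keratinocyte and hair follicle genes. Padi3 was 0.108 CPM in cKO cage male 1, which is 4 counts.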

How the results depend on the processing

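The running log2 fold change of Padi2, a description since it chose the gene, kept its negative sign in every setting tried. For the mean of both genotypes it ranged from -1.80 (males alone) to -1.14 (limma on log2 FPKM with 1 added), and from -1.76 to -1.45 when each library was left out in turn. With a replicate block, which the check of numbers did not support as a pairing, it was -1.66 with 148 genes called for running in place of 273, and Padi2 for genotype in runners was -0.37 (edgeR adjusted p = 0.669). The block changed no call of Padi2 or Padi4 in the genotype, interaction or sex comparisons.

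For genotype and the interaction, Padi2 was not called in any setting. With limma-voom and quality weights, genotype in runners was -0.95 (adjusted p = 0.184). Leaving out each library in turn gave -0.88 to -0.17 in runners, -0.83 to -0.15 for the interaction, -0.46 to -0.09 for the mean of both activities and -0.18 to 0.073 in caged mice. The caged value turned positive without WT cage female 3 (0.068), WT cage male 3 (0.049), cKO cage female 2 (0.042), cKO cage female 3 (0.073) or cKO cage male 1 (0.021), with a macrophage covariate (0.089) and without WT running male 2 and cKO cage female 3 (0.068). The interaction turned positive with a Schwann cell covariate (0.091).

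Padi4 turned sign in several settings. For genotype in caged mice it was 0.39 with limma-voom, 0.10 and 0.58 with limma on log2 FPKM with 1 and 0.1 added, 0.18 with the replicate block, 0.0094 with the project term, 0.19 with a muscle, 0.21 with a mitochondrial rRNA and 0.071 with a macrophage covariate, 0.76 in females alone, and -0.40 to 0.16 leaving out each library in turn (0.060 without WT cage male 2, 0.16 without cKO cage male 2). For the interaction it was -0.23 in females alone. Male against female was 0.086 and 0.27 with limma on log2 FPKM with 1 and 0.1 added, and 0.017 with the mitochondrial covariate. For running in WT it was -0.032 with the eGFP covariate, -0.044 without the 2 libraries of the less common project, -0.081 without WT running female 2 and male 3, -0.066 without WT running male 2 and cKO cage female 3, and -0.070 to 0.38 leaving out each library in turn (-0.070 without WT cage female 3, -0.045 without WT cage female 4, -0.064 without WT running male 2). In 7 of 25 such fits Padi4 did not pass the filter. The cause was not tested.

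Counts of called genes, the background, moved most. For running as the mean of both genotypes they were 715 with no filter, 637 with DESeq2, 912 with limma-voom, 155 and 147 with limma on log2 FPKM with 1 and 0.1 added, 498 with a muscle, 152 with a mitochondrial rRNA, 11 with an eGFP, 116 with a Schwann cell and 108 with a macrophage covariate, 127 without the less common project, 135 without WT running male 2 and cKO cage female 3, 8 in females and 102 in males, and 127 to 568 leaving out each library in turn. For sex they were 61 with library totals alone, 445 with no filter, 251 with DESeq2, 442 with limma-voom, 41 and 46 with limma on log2 FPKM, 237 with a muscle covariate and 29 without the eGFP libraries. For genotype as the mean of both activities they were 91 with no filter, 2 with DESeq2, 2 without WT running male 2 and cKO cage female 3, 0 to 2 leaving out each library in turn, and 0 with limma-voom, either limma fit on log2 FPKM, the replicate block, the project term, a muscle, eGFP or Schwann cell covariate, without WT running female 2 and male 3, in females or in males. With no filter, 4 genes were called for genotype in caged mice, 282 in runners and 65 for the interaction. For genotype in runners limma on log2 FPKM with 1 added called 1, the fit without WT running male 2 and cKO cage female 3 called 2, and fits leaving out each library called 0 to 2.

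In runners, r between Padi2 and the Schwann cell sum was -0.704 on FPKM (adjusted permutation p = 0.101). In caged mice, r between Padi2 and the macrophage sum was -0.629 on FPKM, and for the muscle sum 0.511 on FPKM and 0.177 without the 2 farthest libraries. Without the 2 farthest libraries the Schwann cell sum gave -0.568, against 0.02 with them, and the keratinocyte sum -0.0096, against -0.553. Padi1, Padi3, Padi4 and Padi6 are limited by depth, since most libraries hold fewer than 10 counts of each.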
